A study of Saccharomyces cerevisiae with 7 samples.

Results

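Convergent gaps are the stretches between neighbouring protein-coding genes that are both transcribed towards the gap, so that each gap begins and ends at a stop codon. They were found in the R64 annotation, with strand taken from the locus tags, as the intervals between the stop codons of such pairs on the nuclear chromosomes other than III. This gave 1476 gaps, of which 31 were mostly masked, and the remaining 1445 were analysed among 11201 regions of all types. They covered 448723 unmasked bp, or 4.02% of the analysed length, and their median width was 229 bp (quartiles 141 and 346 bp, range 2 to 4527 bp). The other regions were 2688 tandem gaps, 1462 divergent gaps and 5606 intragenic regions.

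Spo11 is the topoisomerase-like protein that makes the DNA double-strand breaks that start meiotic recombination, and it stays covalently attached to the 5′ end of each cut strand. In budding yeast most breaks form in hotspots within nucleosome-depleted promoters, which lie upstream of start codons. A convergent gap has a terminator at each end and no promoter of its flanking genes, and is therefore a place where few breaks are known to form.

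The CC-seq assay maps such protein-linked 5′ ends (hits) at single-nucleotide resolution. All samples were meiotic SK1 cells, 6 h into meiosis, that carried sae2∆, which prevents the removal of Spo11 from DNA ends. SPO11+ cells gave 5 biological replicates with 3177210 to 8564017 hits each (replicate 5 is the sum of 2 technical libraries, labelled sae2 but deposited under names that say WT), and the spo11-Y135F control, in which the catalytic tyrosine of Spo11 is replaced, gave 1 library of 2326054 hits. Whether the biological replicates were separate cultures is not stated beyond their labels, so the spread may be partly technical. Values are given as HpM, hits scaled to 1000000 total hits of each library, and as HpM per bp of unmasked sequence. HpM is a share of a library: hits gained at hotspots lower every other position on this scale, and the control library has almost no hotspots. Replicate 2 was the deepest library and had the lowest level between hotspots, so results that it affects are also given without it.

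Hotspots were called in the mean SPO11+ map, after smoothing with a Hann window (100 bp on either side of a position). A hotspot was a stretch over 3 times the genome mean of 0.0867 HpM per bp and no shorter than 25 bp, and neighbours under 200 bp apart were joined. Of 2682 hotspots, 31 had their highest point in a convergent gap, 1309 in a tandem gap, 1142 in a divergent gap and 191 inside an ORF. The 31 convergent gaps are called hot here. A further 15 gaps, called edge gaps, were overlapped by a hotspot that peaked elsewhere (12 in part and 3 over their whole length), a class separated after the data were seen, and the other 1399 (96.8%) are called cold. Since hot gaps were chosen by their SPO11+ hits, their level in SPO11+ is a description. As a group they were tested only in replicates that had been left out of the call. The fit of single regions below also includes them, and its calls for hot gaps are no support for their level. With 5 replicates the exact sign-flip permutation test cannot give a two-sided p below 0.0625.

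Convergent gaps held 1.57% ± 0.133 of all SPO11+ hits (SD, n = 5, range 1.36% to 1.67%), against 4.06% of the spo11-Y135F hits (95% Wilson interval 4.03% to 4.08%, counting error only). The control share lies close to the 4.02% of the analysed length that the gaps cover, and the SPO11+ share lies below it in every replicate. The library totals include hits on chromosome III, which the analysed length leaves out, so the shares of hits and length are not fully matched. The 1399 cold gaps held 54.1% ± 5.76 of the convergent SPO11+ hits, the 31 hot gaps 37.8% ± 4.67 and the 15 edge gaps 8.11% ± 1.14 (SD, n = 5). In the spo11-Y135F library the hot gaps held 9.27% of the convergent hits (Wilson interval 9.09% to 9.46%), close to their 8.68% of the gap length. The hot gaps' share was 45.0% in SPO11+ replicate 2 and 32.7% to 38.9% in the other replicates, and without replicate 2 it averaged 35.2%.

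**Figure D1:**
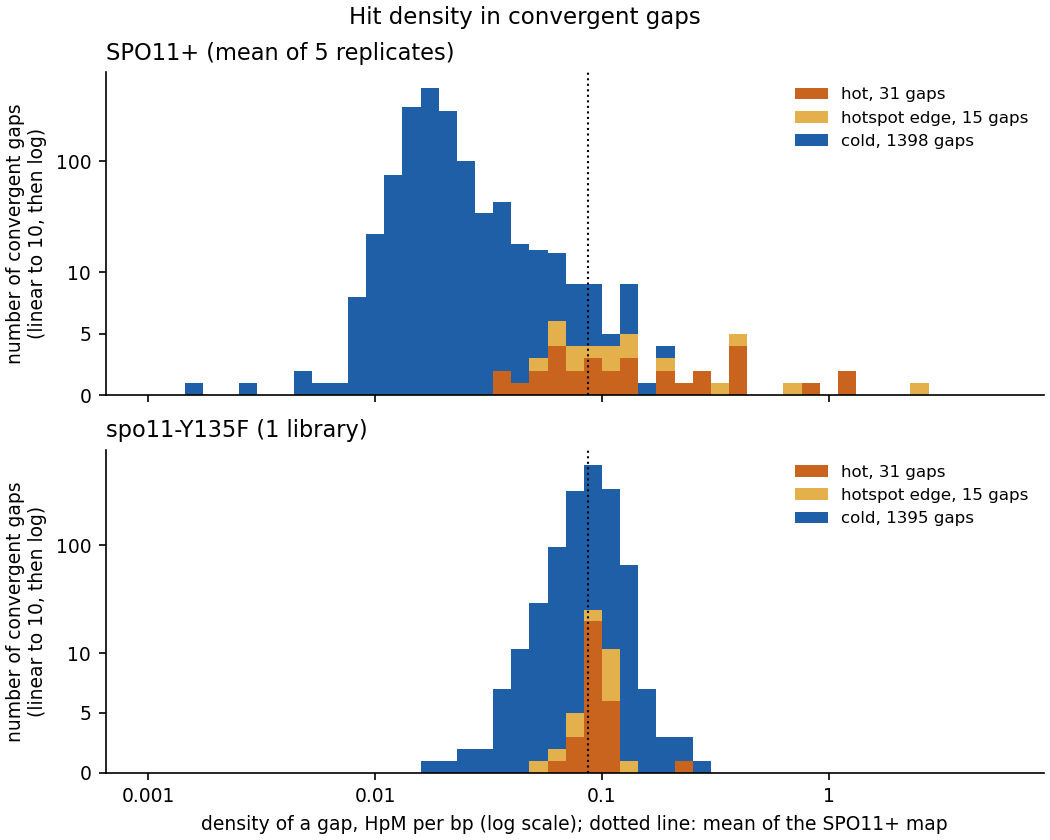
Number of convergent gaps (linear up to 10, then log) by hit density (HpM per bp, log scale) in SPO11+ (above, mean of 5 replicates) and spo11-Y135F (below, 1 library), coloured by class; the dotted line is the SPO11+ genome mean, and gaps at 0 (1 in SPO11+, 4 in spo11-Y135F) are not drawn. The SPO11+ cold gaps form a narrow group around 0.0178 HpM per bp with a tail of hot and edge gaps up to 2.51, whereas in spo11-Y135F all classes share one group around 0.09.

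The cold majority was low in every SPO11+ replicate. The median density of the cold gaps was 0.0206, 0.0110, 0.0217, 0.0177 and 0.0177 HpM per bp in SPO11+ replicates 1 to 5, against 0.0907 HpM per bp in spo11-Y135F. Replicate 2 was lowest, and every replicate was below the control. Across the 1399 gaps the mean SPO11+ density ran from 0.0124 HpM per bp at the 5th percentile to 0.0378 at the 95th, and the spo11-Y135F density from 0.0601 to 0.121. Only 10 cold gaps (0.715%) exceeded the genome mean. The densest of these, chosen after its values were seen, was the 126 bp gap between PPG1, a phosphatase gene, and HUB1, a ubiquitin-like protein gene. PPG1-HUB1 held 26.4, 29.9, 26.7, 15.2 and 22.7 HpM in the SPO11+ replicates, against 12.5 HpM in spo11-Y135F, and no hotspot was called there.

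Against intragenic regions, convergent gaps were lower by the median and higher in bulk. The ratio of the medians, convergent over intragenic, was 0.882 ± 0.026 (SD, n = 5) and below 1 in 5 of 5 replicates (exact sign-flip permutation test, two-sided p = 0.0625, the smallest possible). When hits were pooled over length, the ratio was 1.15 ± 0.062, above 1 in 5 of 5 replicates (exact sign-flip permutation test, p = 0.0625), so the direction depends on the summary. Among regions that overlap no hotspot, the ratio of medians was 0.896 ± 0.017. In absolute terms the median density of convergent gaps was 0.0179 HpM per bp, that of intragenic regions 0.0201, that of tandem gaps 0.107 and that of divergent gaps 0.218 in the mean SPO11+ map. In spo11-Y135F the medians stood the other way, at 0.0908 HpM per bp for convergent gaps and 0.0862 for intragenic regions.

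The difference between strains was also fitted by region with edgeR on raw hits, with total hits as library size, which compares shares. Of 1406 convergent gaps tested, 18 were called higher and 1320 lower in SPO11+ than in spo11-Y135F (adjusted p under 0.05). The background over all 11128 regions tested was 20.2% called higher and 66.8% called lower. Cold gaps were called higher in 2 of 1360 cases and lower in 1312. The 2, named after their values were seen, were PPG1-HUB1 (log2 fold change 0.96, edgeR adjusted p = 0.0484) and YAL037W-RBG1 (0.84, adjusted p = 0.0405), and each was called in only 2 of the 5 fits that left out a SPO11+ replicate. The classes were themselves set by SPO11+ hits, so this split is a description. These calls turn on the scale: with the intragenic hits outside hotspots as library size, 103 convergent gaps were called higher and 140 lower (backgrounds 39.9% and 2.1%), and with TMM factors 75 and 662 (backgrounds 35.6% and 30.2%). The median log2 fold change of all regions was -1.77 with total hits, -0.20 with TMM and 0.21 with intragenic hits, and that of convergent gaps was -2.35, -0.79 and -0.38. The spo11-Y135F group is a single library, assumed to vary like the SPO11+ replicates.

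The densities of cold gaps were correlated between SPO11+ replicates, less so by rank. Over the 786 cold gaps of at least 200 bp, Pearson's r of the density was 0.837 to 0.919 between the 10 pairs of replicates, and 0.107 to 0.209 between a SPO11+ replicate and spo11-Y135F. Spearman's rho was 0.444 to 0.638 between replicates and 0.195 to 0.267 with spo11-Y135F. These are descriptions across gaps that share mappability and local sequence. The spread of the cold density was also wider than counting error in each SPO11+ library. The coefficient of variation was 92.6% in replicate 2 and 52.3% to 66.0% in the other replicates, against 15.1% to 20.2% from Poisson counting. In spo11-Y135F it was 18.3% against 12.1%.

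The cold density was higher near start codons and near hotspots. Cold gaps whose nearest start codon lay within 300 bp of an edge had a pooled density of 0.0248 ± 0.0032 HpM per bp in SPO11+, against 0.0241 ± 0.0038 at 300 to 600 bp, 0.0206 ± 0.0038 at 600 to 1200 bp, 0.0181 ± 0.0039 at 1200 to 2400 bp and 0.0188 ± 0.0038 beyond (SD, n = 5). The nearest class exceeded the next in 4 of 5 replicates, by a factor of only 1.03 ± 0.042 (exact sign-flip permutation test, p = 0.1875), and the others in 5 of 5, by 1.21 ± 0.087, 1.40 ± 0.16 and 1.33 ± 0.12. The spo11-Y135F densities over the 5 classes were 0.0866, 0.0896, 0.0894, 0.0910 and 0.0976. By distance to the nearest hotspot, the pooled density was 0.0550 ± 0.0036 HpM per bp within 100 bp (10 gaps) and 0.0296 ± 0.0032 at 100 to 300 bp. It was 0.0239 ± 0.0037 at 300 to 1000 bp, 0.0197 ± 0.0037 at 1000 to 3000 bp (738 gaps) and 0.0193 ± 0.0043 beyond 3000 bp. Hotspots were called in the same SPO11+ hits, so the nearest gaps can hold the flank of a hotspot below the threshold. This trend is therefore a description. The control ranged only from 0.0891 to 0.0900 HpM per bp over these distance classes.

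The lowest densities among gaps of at least 200 bp were in THI13-AAD4, PAU6-YNR077C and PAU24-COS2, which lie beside members of multigene families: THI13 acts in the synthesis of a thiamine precursor, AAD4 encodes an aryl-alcohol dehydrogenase, and PAU6, PAU24 and COS2 belong to the seripauperin and DUP families. THI13-AAD4 held 5, 8, 7, 4 and 9 hits in SPO11+ (0.0044 HpM per bp), against 15 hits in spo11-Y135F (0.0184 HpM per bp). In PAU6-YNR077C the mean SPO11+ density was 0.0051 HpM per bp, against 0.0286 for spo11-Y135F. PAU24-COS2 stood at 0.0054 HpM per bp in SPO11+, against 0.0336 for spo11-Y135F. The control was thus also below its usual 0.09 in these gaps, and the part of repeated sequence in their low values was not tested.

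Wide gaps could also be cold. FDC1-IRC4 (3530 bp), beside the ferulic acid decarboxylase gene FDC1, held 68.0, 24.3, 72.0, 56.2 and 69.5 HpM in SPO11+, against 270.0 HpM in spo11-Y135F. Its highest smoothed point reached only 0.282 times the genome mean. APC11-YDL007C-A (2572 bp), beside an anaphase-promoting complex subunit gene and holding a tRNA gene, averaged 31.8 ± 7.47 HpM in SPO11+ (SD, n = 5), against 170.2 HpM in spo11-Y135F. GLC7-YER134C (3308 bp), beside the protein phosphatase 1 gene GLC7, had 60.8 ± 5.73 HpM in SPO11+ and 167.2 in spo11-Y135F, and fell just short of the threshold.

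Hot gaps became more common with width. No gap under 100 bp (0 of 170) or of 100 to under 200 bp (0 of 450) was hot. The share was 0.551% at 200 to under 400 bp (3 of 544), 5.46% at 400 to under 800 bp (10 of 183) and 18.4% at 800 bp or more (18 of 98). Over the same classes, tandem gaps held a highest point in 4.35% to 61.3% of cases and divergent gaps in 3.85% to 79.9%, so convergent gaps had the lowest share in each class. Over all widths the shares were 2.15% for convergent, 3.26% for intragenic, 47.2% for tandem and 71.3% for divergent regions.

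**Figure D2:**
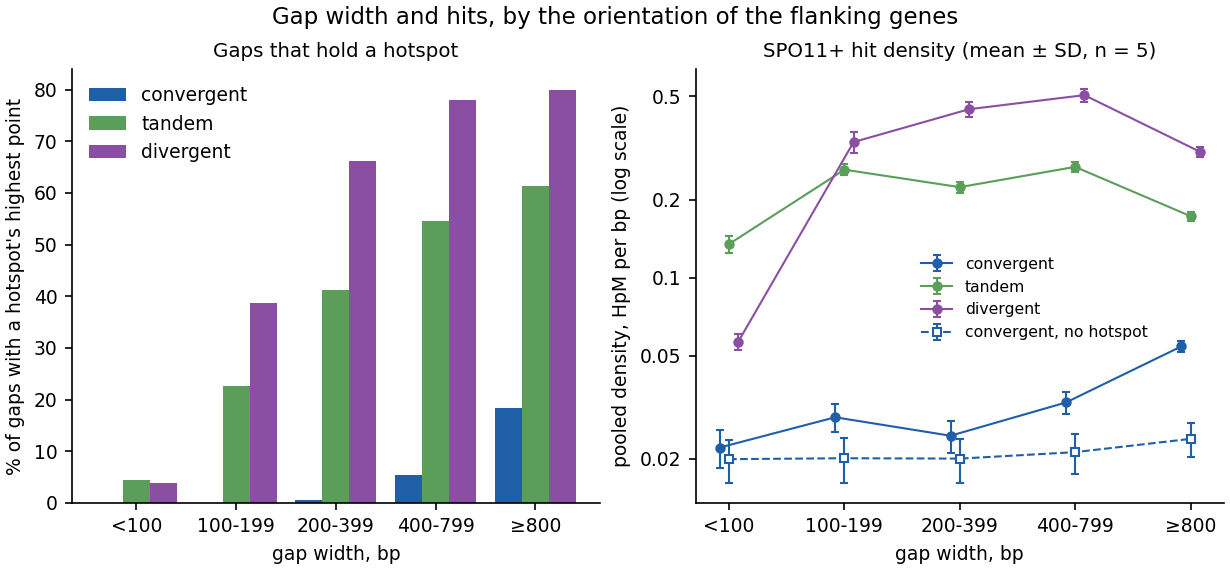
Left, percentage of gaps that hold the highest point of a hotspot by gap width (bp); right, pooled SPO11+ density (HpM per bp, log scale, mean ± SD, n = 5). Bars and filled points are convergent, tandem and divergent gaps and open squares are convergent gaps without a hotspot; convergent gaps are lowest in every class, and without hotspots they stay between 0.0199 and 0.0238 HpM per bp.

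At matched width convergent gaps had a lower pooled SPO11+ density than tandem gaps. The ratio, convergent over tandem, was 0.166 ± 0.036 under 100 bp, 0.111 ± 0.017 at 100 to under 200 bp, 0.110 ± 0.019 at 200 to under 400 bp, 0.124 ± 0.017 at 400 to under 800 bp and 0.315 ± 0.018 at 800 bp or more (SD, n = 5). It was below 1 in 5 of 5 replicates in each of the 5 classes (exact sign-flip permutation test, two-sided, Benjamini-Hochberg adjusted p = 0.0625). The narrow classes depended on the summary: by medians over gaps, an alternative added after the data were seen, the ratio was 0.727 ± 0.195 under 100 bp and 0.169 ± 0.038 at 100 to under 200 bp. With 100 bp taken off both ends of each ORF, which left 5 convergent and 3 tandem gaps under 100 bp, it was 0.837 ± 0.368 there (exact sign-flip permutation test, p = 0.3125), and 0.580 ± 0.047 at 100 to under 200 bp (8 and 7 gaps). Among convergent gaps alone, the widest class was 2.51 ± 0.42 times as dense as the narrowest in SPO11+ (range 2.17 to 3.21, p = 0.0625, exact sign-flip), and without replicate 2 the ratio was 2.34. It was 1.53 ± 0.16 with ORFs lengthened by 50 bp at each end and 1.21 ± 0.083 among gaps that overlap no hotspot. In spo11-Y135F the density was 0.0880 HpM per bp in the widest class and 0.0879 in the narrowest. With gaps that overlap hotspots left out, the pooled density was 0.0199 HpM per bp under 100 bp and 0.0238 at 800 bp or more.

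The density changed little across the stop codon. In the 100 bp beyond the stop codons that face convergent gaps, the density over that of the last 300 bp of the ORF was 0.965 ± 0.017 (SD, n = 5, below 1 in 5 of 5 replicates, exact sign-flip p = 0.0625). With each site given equal weight it was 0.934 ± 0.031 (exact sign-flip permutation test, p = 0.0625). With hotspots left out it was 1.01 ± 0.039 (exact sign-flip permutation test, p = 0.5625). The ratio was then 0.987, 1.07, 0.981, 1.03 and 0.991 in SPO11+ replicates 1 to 5, so the replicates shared no direction. At the stop codons that face tandem gaps, where a promoter lies further on, it was 2.35 ± 0.15, and 1.54 ± 0.17 with hotspots left out. In spo11-Y135F the ratio was 1.04 at convergent stop codons, with or without hotspots. At tandem stop codons it was 1.07, and 1.05 with hotspots left out. All these sites lie in gaps of at least 200 bp.

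**Figure D3:**
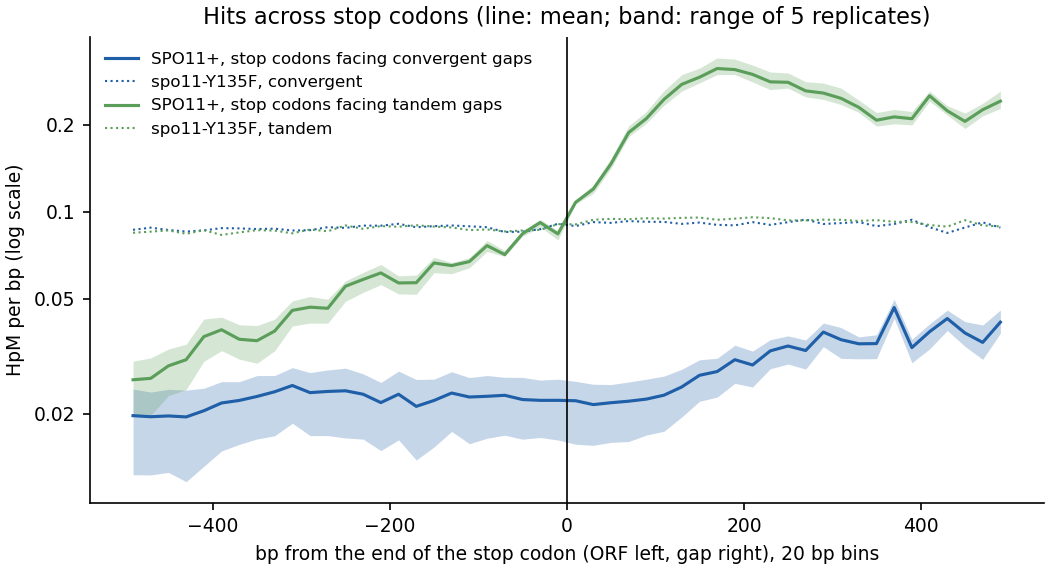
Mean hits (HpM per bp, log scale) in 20 bp bins from 500 bp inside the ORF (left) to 500 bp into the gap (right) at stop codons facing convergent or tandem gaps; lines are means over SPO11+ replicates, bands their range and dotted lines spo11-Y135F. The convergent line crosses the stop codon near 0.022 HpM per bp while the tandem line lies above it and climbs into the gap.

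The 31 hot gaps spread over 14 of the 15 chromosomes analysed, with 0 on VIII and at most 4 on any other. Of these, 25 were hot in every replicate called alone, 4 in 4 replicates, MRPS8-YMR158C-A in 3 and MID2-RPS25B in 2. Single replicates called 29 to 35 hot convergent gaps, whereas spo11-Y135F gave 15 clusters in all, of which 2 peaked in convergent gaps and none in the 31. These 2 gaps, named after their values were seen, were YAL064W-B-TDA8 (49.8 ± 14.2 HpM in SPO11+, against 218.8 HpM in spo11-Y135F) and DSF1-HXT13 (24.7 ± 4.51 HpM in SPO11+, against 73.1). Both were below the control in every SPO11+ replicate.

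Hot gaps called without a replicate were also dense in it. The pooled density of hot over other convergent gaps in the left-out SPO11+ replicate was 6.05, 9.21, 4.80, 6.69 and 6.10 (mean 6.57 ± 1.63, above 1 in 5 of 5, exact sign-flip permutation test, two-sided p = 0.0625). In spo11-Y135F the same gaps gave 1.06 to 1.08. Each of the 30 to 33 gaps called in this way exceeded the median of the other gaps in the replicate left out, and 28 or 29 of them exceeded the 95th percentile.

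The hits in hot gaps were concentrated in a few. The mean content of a hot gap ranged from 49.7 to 1003 HpM (median 116) in SPO11+, and 6 gaps held 51.1% of the hits of all 31. Within the hotspots themselves the mean SPO11+ value exceeded spo11-Y135F in 31 of 31, a value that the call itself used. Over whole gaps, 15 held more HpM in every SPO11+ replicate than in spo11-Y135F, 13 held less in every replicate and 3 overlapped it. This split depends on the scale. The median log2 fold change of the hot gaps was 0.19 with total hits, 1.77 with TMM and 2.21 with intragenic hits as library size. The whole-gap density of 12 hot gaps was below the genome mean. Outside the hotspots the hot gaps had a pooled density of 0.0387 ± 0.0027 HpM per bp in SPO11+ (SD, n = 5), against 0.0958 for spo11-Y135F.

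**Figure D4:**
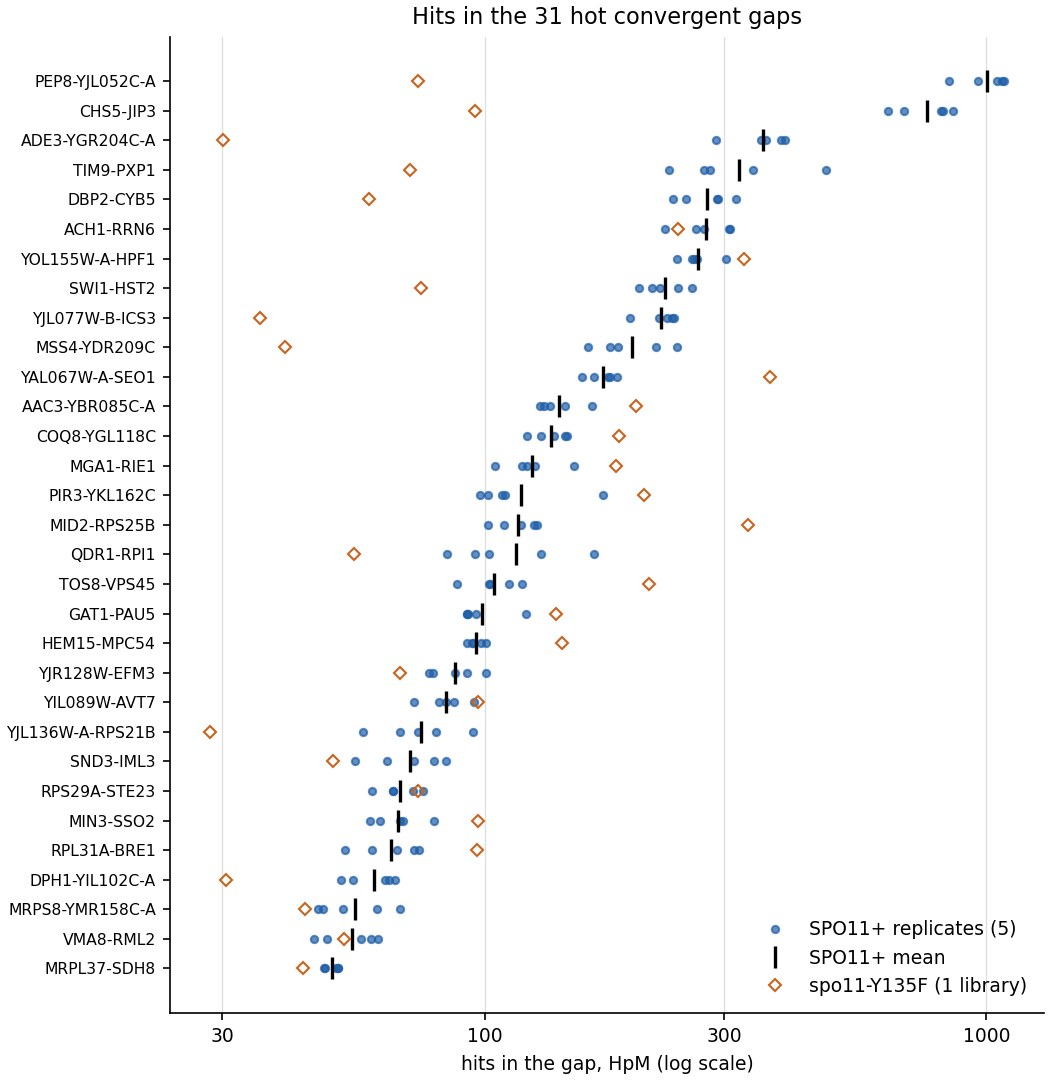
Hits (HpM, log scale) in each of the 31 hot convergent gaps, named by their flanking genes and ordered by the SPO11+ mean; blue points are the 5 SPO11+ replicates, ticks their mean and diamonds spo11-Y135F (1 library). SPO11+ replicates cluster closely in most gaps, and the control lies left of them at the top of the list and right of them in many wide gaps further down.

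The gap with most hits was PEP8-YJL052C-A on chromosome X (846 bp), between PEP8, a retromer subunit gene, and the small ORF YJL052C-A of 120 bp, beyond which lies TDH1, a glyceraldehyde-3-phosphate dehydrogenase gene. It held 841, 1052, 964, 1085 and 1074 HpM in the SPO11+ replicates, against 73.5 HpM in spo11-Y135F. Every replicate was over 10 times the control. The hotspot ran over X:337229-338048 (Cer3H4L2, 820 bp), its highest point was 58.9 times the genome mean, and it extended beyond the gap across YJL052C-A, with 79.9% of its length inside.

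CHS5-JIP3 on XII (989 bp) was the second gap, beside CHS5, whose product carries chitin synthase to the cell surface. It held 857, 811, 638, 820 and 686 HpM in SPO11+, against 95.9 HpM in spo11-Y135F. Its right edge is formed by the ORF JIP3 (378 bp), and the start codon of MID2, a cell wall stress sensor gene, lay 8 bp from that edge. The hotspot, XII:789782-790188, lay wholly in the gap and peaked 674 bp from that start codon at 37.0 times the genome mean.

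ADE3-YGR204C-A on VII (286 bp) was the densest hot gap at 1.25 HpM per bp, next to ADE3, a one-carbon folate enzyme gene. It held 389, 396, 289, 364 and 356 HpM in SPO11+, against 30.1 HpM in spo11-Y135F. The right ORF, YGR204C-A, is 114 bp long. The hotspot spanned VII:908836-909083 and peaked 219 bp from its start codon, with 90.7% of its length in the gap.

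TIM9-PXP1 on V (1142 bp, 818 unmasked) holds RPR1, the RNA gene of RNase P, between the genes for the mitochondrial chaperone Tim9 and the peroxisomal protein Pxp1. It held 274, 343, 233, 479 and 282 HpM in SPO11+, against 70.9 HpM in spo11-Y135F. Replicate 4 was highest, and this was the most variable hot gap (coefficient of variation 29.8%). The hotspot, V:117641-118090, peaked inside RPR1, 237 bp from its 5′ end.

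DBP2-CYB5 on XIV (658 bp) lies between an RNA helicase gene and the cytochrome b5 gene, an ORF of 363 bp. It held 237, 292, 291, 318 and 252 HpM in SPO11+, against 58.9 HpM in spo11-Y135F, so the groups did not overlap. ACH1-RRN6 on II (3361 bp), between an acetyl-CoA hydrolase gene and a gene of an RNA polymerase I factor, holds tRNA genes and a hotspot of 267 bp. Its totals of 309, 308, 274, 229 and 264 HpM in SPO11+ overlapped the 242.9 HpM of spo11-Y135F. The hotspot alone, II:196025-196291, held 187 ± 26.7 HpM in SPO11+ (SD, n = 5), hits that the call used, and 28.4 in spo11-Y135F.

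**Figure D5:**
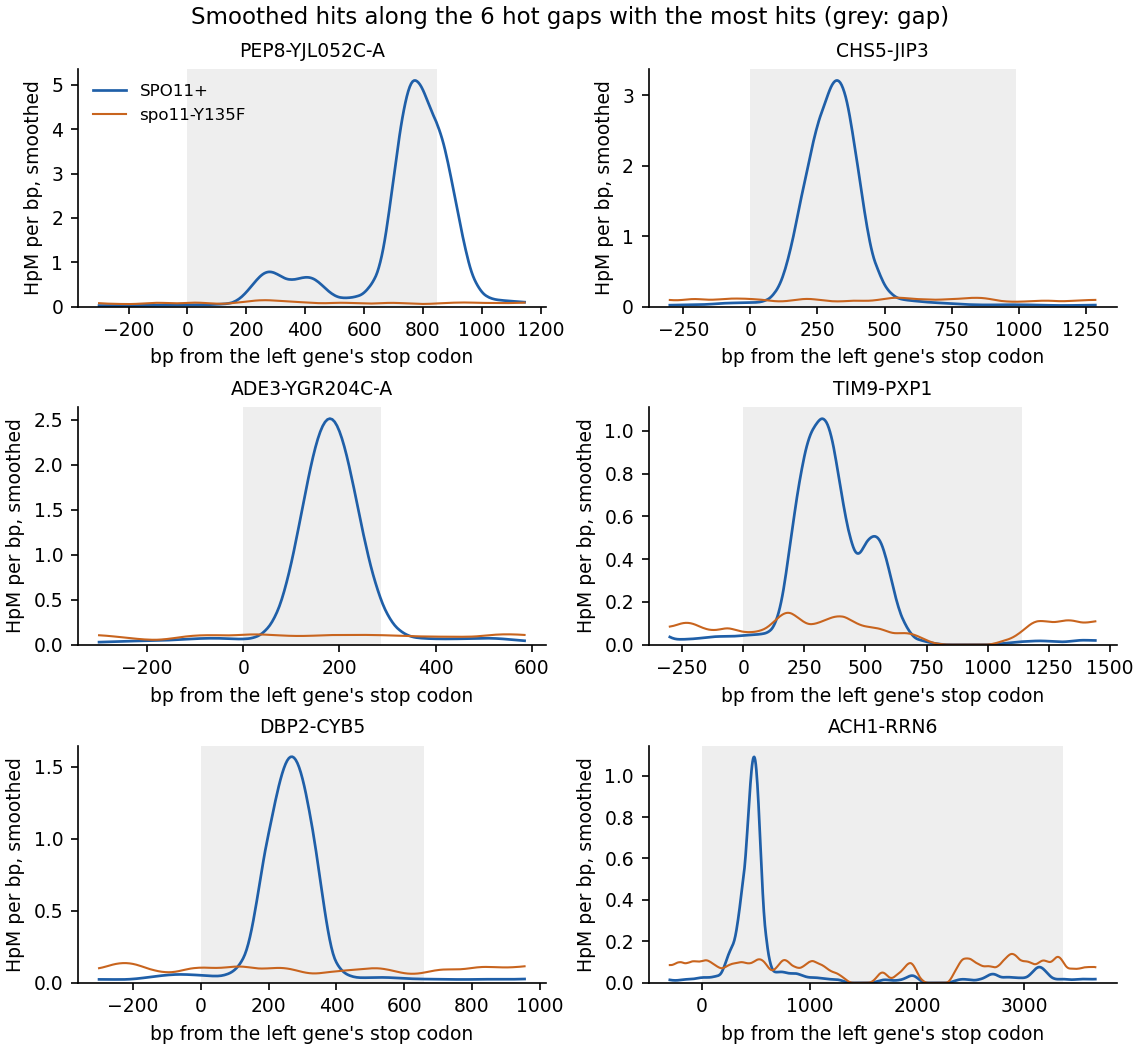
Smoothed hits (HpM per bp, mean of 5 SPO11+ replicates in blue, 1 spo11-Y135F library in orange) along the 6 hot gaps with the most hits, by distance in bp from the left gene's stop codon; grey marks the gap. Each SPO11+ curve has its main peak within the gap, up to 5.10 HpM per bp in PEP8-YJL052C-A, and the control stays at or below 0.149 in all 6.

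The other gaps among the 12 with most hits were of mixed kinds. SWI1-HST2 on XVI, between genes of a chromatin remodeller subunit and a sirtuin, held 216, 259, 203, 243 and 224 HpM in SPO11+, against 74.8 in spo11-Y135F, with 26.4% of the hotspot's hits on the Watson strand. YJL077W-B-ICS3 on X held 195, 222, 238, 236 and 231 HpM in SPO11+, against 35.7 in spo11-Y135F, with 72.4% on Watson. These were the extremes of strand share among the 31 hotspots, whose median was 50.8%. MSS4-YDR209C on IV, beside a phosphoinositide kinase gene, held 185, 220, 177, 242 and 161 HpM in SPO11+, against 40.0 in spo11-Y135F, and the start codon of CPP2 lay 39 bp from its edge.

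In 3 of these gaps the whole-gap value was below the control on the HpM scale although a hotspot was called. YOL155W-A-HPF1 on XV, beside a cell wall mannoprotein gene, held 303, 259, 261, 242 and 266 HpM in SPO11+, against 328.5 in spo11-Y135F, where it also had the highest density of any hot gap (0.221 HpM per bp). YAL067W-A-SEO1 on I, the widest gap at 4527 bp, beside a permease gene, held 183, 157, 177, 165 and 178 HpM in SPO11+, against 371.0 in spo11-Y135F. AAC3-YBR085C-A on II (2000 bp), beside an ADP/ATP carrier gene, held 129.0, 131.6, 134.8, 163.5 and 144.8 HpM in SPO11+, against 199.9 in spo11-Y135F. With intragenic hits outside hotspots as library size, the log2 fold changes of these gaps, in the order named, were 1.70, 0.89 and 1.50.

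Their hotspots alone held more HpM in SPO11+ than in the control. The hotspots were called on these same SPO11+ hits, so this difference is a description and no support for their level. The YOL155W-A-HPF1 hotspot held 182 ± 20.9 HpM in SPO11+ (SD, n = 5) and 87.3 in spo11-Y135F, and that of YAL067W-A-SEO1 81.0 ± 15.1 and 9.46. The AAC3-YBR085C-A hotspot held 97.7 ± 16.9 HpM in SPO11+ and 16.3 in spo11-Y135F.

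The order of the leading gaps was stable in part. PEP8-YJL052C-A exceeded CHS5-JIP3 in 4 of 5 SPO11+ replicates, CHS5-JIP3 exceeded ADE3-YGR204C-A in 5 and ADE3-YGR204C-A exceeded TIM9-PXP1 in 4. TIM9-PXP1 was above DBP2-CYB5 in 4 replicates, whereas DBP2-CYB5 was above ACH1-RRN6 in only 2, so these neighbours do not differ beyond their spread. Over the 31 hot gaps r between replicates was 0.959 to 0.993, and with spo11-Y135F -0.0621 to 0.0049, as a description across gaps.

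The threshold passed between similar gaps. Just inside it, the highest points of MID2-RPS25B and MIN3-SSO2 were 3.07 and 3.42 times the genome mean. Just outside, those of GLC7-YER134C and ERV1-POP6 were 2.99 and 2.97 times. MID2-RPS25B held 116 ± 10.8 HpM in SPO11+ (SD, n = 5) and 335.3 in spo11-Y135F, where only YAL067W-A-SEO1 among convergent gaps held more, and ERV1-POP6 58.8 ± 8.39 and 122.5.

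Hot gaps differed from cold gaps in the ORFs beside them. At least one flanking ORF was shorter than 500 bp in 20 of 31 hot gaps (64.5%), against 321 of 1399 cold gaps (22.9%), and shorter than 300 bp in 12 hot gaps (38.7%), against 100 cold gaps (7.15%). A start codon lay within 300 bp of the gap in 15 of 31 hot gaps, against 101 of 1399 cold gaps. The median hot gap was 989 bp wide, against 224 bp for cold gaps. A width of 800 bp or more was found in 18 hot gaps (58.1%), against 79 cold gaps (5.65%). These features overlap one another and were not tested.

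Of the hotspots themselves, 24 of 31 lay wholly within the gap, their median width was 129 bp (31 to 820 bp) and their highest point lay a median of 269 bp from the nearer stop codon. The highest point was 126 to 2556 bp from the nearest start codon, with a median of 752 bp.

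Small ORFs set the type of several gaps. In an alternative added after the data were seen, the 281 ORFs under 300 bp were left out of the annotation. The highest points of 24 of the 31 hot gaps then still lay in convergent gaps, and those of 7, among them PEP8-YJL052C-A, ADE3-YGR204C-A and YJL077W-B-ICS3, lay in tandem gaps. In the case of PEP8-YJL052C-A the gap became PEP8-TDH1. The 300 bp cut kept CHS5-JIP3 and MSS4-YDR209C convergent, since their shorter flanking ORFs are 378 and 414 bp long. The start codons of MID2 and CPP2 lay 8 and 39 bp from these gaps. The number of convergent gaps that hold a highest point was then 44 of 1372 (3.21%).

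Non-coding genes were also more frequent in hot gaps. A non-coding gene lay in 12 of 31 hot gaps (38.7%), against 44 of 1399 cold gaps (3.15%). Transfer RNA genes were in 7 hot gaps, against 29 cold gaps, and snoRNA genes, whose products guide the modification of ribosomal RNA, were in 5, against 9. Of the 14 gaps with a snoRNA gene 35.7% were hot, against 19.4% of the 36 with a tRNA gene. Gaps with a non-coding gene were also wider, with a median of 1058 bp, against 220 bp for gaps without one. Within a width class, gaps with a non-coding gene were hot in 3 of 12 cases at 400 to under 800 bp, against 7 of 171 without one, and in 9 of 41 (22.0%) at 800 bp or more, against 9 of 57 (15.8%).

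In the 5 hot gaps with a snoRNA gene the highest point lay upstream of the 5′ end of the nearest one, by 77 bp at SNR34, 91 bp at SNR3, 204 bp at SNR83, 326 bp at SNR63 and 344 bp at SNR57. Over the 15 snoRNA genes that lay wholly in a convergent gap (of 16 that overlapped one) the 300 bp upstream, as far as the gap reached, held 0.0839 ± 0.0069 HpM per bp and the gene itself 0.0193 ± 0.0037 in SPO11+ (SD, n = 5), against 0.1003 and 0.0858 in spo11-Y135F. Over the 38 tRNA genes the order was the other way, with 0.0268 ± 0.0030 HpM per bp upstream and 0.0521 ± 0.0060 in the gene in SPO11+, against 0.0780 and 0.0815 in spo11-Y135F. At EMT4, a methionine tRNA gene in MRPS8-YMR158C-A, the highest point lay inside the gene, 12 bp from its 5′ end. Beside RPR1 it was the only other hot gap that peaked inside a non-coding gene.

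Of the 31 hot gaps, 28 had a flanking ORF under 500 bp, a width of 800 bp or more or a non-coding gene, against 383 of 1399 cold gaps (27.4%). The others were QDR1-RPI1, SND3-IML3 and VMA8-RML2, 521 to 568 bp wide. QDR1-RPI1, beside a multidrug transporter gene, held 165, 102, 84.2, 95.5 and 129 HpM in SPO11+, against 55.0 in spo11-Y135F, and only 58.1% of its hotspot lay in the gap. SND3-IML3, beside the kinetochore gene IML3, held 70.9 ± 11.5 HpM in SPO11+ (SD, n = 5) and 49.9 in spo11-Y135F, and VMA8-RML2, beside a vacuolar ATPase subunit gene, 54.3 ± 6.84 and 52.4.

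The 15 edge gaps lay beside hotspots that peaked in an ORF (10 gaps) or a divergent gap (5 gaps), and 13 of them had a flanking ORF under 500 bp. YJL028W-YJL027C on X (186 bp) was the densest of all convergent gaps at 2.51 HpM per bp. It held 409, 500, 478, 469 and 479 HpM in SPO11+, against 13.8 HpM in spo11-Y135F. Its hotspot peaked inside YJL027C, 214 bp from the gap. AHA1-YDR215C, beside an Hsp90 co-chaperone gene, had 112 ± 17.4 HpM in SPO11+ and 10.7 in spo11-Y135F, and its hotspot peaked in YDR215C, 179 bp away.

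Watson and Crick hits offset by 1 bp were more correlated in hot gaps than in cold ones. Pearson's r between Watson and Crick hits offset by 1 bp, over positions with hits on both strands, was 0.805 ± 0.029 in hot gaps and 0.445 ± 0.057 in cold gaps of SPO11+ (SD, n = 5). In spo11-Y135F it was 0.0502 in hot and 0.0184 in cold gaps. Such paired positions held 71.8% ± 5.87 of the SPO11+ hits of hot gaps, against 12.2% in spo11-Y135F. In cold gaps they held 12.3% ± 5.14 of the SPO11+ hits, against 10.0% in spo11-Y135F. The cold share was 21.4% in SPO11+ replicate 2 and 9.14% to 10.9% in the other replicates, on either side of the control. The hot share was 82.0% in replicate 2 and 68.0% to 71.6% in the others. These correlations are across sites and are descriptions, and that of cold gaps fell to 0.176 ± 0.102 when all positions were used. No other offset was computed. Cold gaps also held fewer hits than hot gaps, and the part of hit number in the difference was not tested.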

How the data were processed

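Spo11 CC-seq hits were analysed in 6 SPO11+ libraries (5 biological replicates) and 1 spo11-Y135F library, all sae2∆, grouped by their labels. The authors aligned read pairs with bowtie2 (version not given in the sources used here) to Cer3H4L2, placed each protein-linked 5′ end with terminalMapper, and masked repeats (retrotransposons and their LTRs, rDNA, telomeres). Single libraries were deposited as unnormalised counts, one value for each strand at each base. An average map deposited by the authors as RPM (hits per 1000000, HpM) served only as an alternative input, with its Crick positions moved up by 1 bp.

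Hits of replicate 5's technical libraries were summed. Its labels give sae2, and it was taken as sae2∆. Chromosome III, which carries engineered loci, was left out, and positions in runs of over 200 bp without hits in any library were masked. Gaps with an unmasked fraction of at least 0.5 were kept. ORFs and names came from an R64 gene table, whose coordinates are not given. Coordinates given are those of the authors' maps. No genome sequence was used. Regions were fitted with edgeR 4.0.16 (glmQLFit, glmQLFTest; at least 30 hits over all libraries; Benjamini-Hochberg over all regions), with DESeq2 1.42.0 as an alternative, in R 4.3.3, and other values with Python 3.11.15, numpy 2.4.6 and pandas 2.3.3. Ratios were tested over replicates by exact sign-flip permutation of log2 ratios. Correlations used HpM. Wilson intervals at 95% cover counting error only. The scripts were tested on simulated data.

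Gaps were named by a rule: the 12 hot gaps with most hits, 2 just inside and 2 just outside the threshold, the 3 widest cold gaps, the 3 of lowest density at 200 bp or more and the 3 with the highest spo11-Y135F value. Others named were chosen after their values were seen. The members and lists were chosen with earlier results of these data known. Alternatives covered the hotspot threshold, window and merging, region edges, chromosome III, non-coding genes, the input map, scales and each replicate left out, and 5 were added after the data were seen.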

Additional observations from a re-analysis of the deposited data

How the results depend on the processing

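Of 167 values under alternative settings, 2 ratios changed direction. Counts and shares have no direction to change and are among the other 165. Of these 165, 127 stayed within the spread between replicates (1 SD) or, for counts, within 1.5 times the main count. Among the ratios, convergent over tandem moved most, in the narrow classes. Under 100 bp it was 0.837 with 100 bp taken off both ends of each ORF and 0.727 by medians. With ORFs lengthened by 50 bp it was 0.0877 there. At 100 to under 200 bp it was 0.580 with shortened ORFs and 0.169 by medians. The widest over the narrowest class was 1.53 with lengthened ORFs and 1.21 without gaps that overlap a hotspot, and hot over other gaps in the left-out replicate 9.91 with a threshold of 5 times the mean. With a threshold of 5 times the mean, 17 convergent gaps were hot and held 30.0% of the convergent hits, and with gaps that hold a non-coding gene left out 19 were hot. The share of hits in hot gaps was 42.7% with a Hann window that reached 50 bp, 31.6% with 100 bp taken off both ends of each ORF and 43.8% with ORFs lengthened by 50 bp. In alternatives added after the data were seen it was 49.9% with ORFs under 300 bp left out and 45.9% with all gaps that overlap a hotspot. The convergent over intragenic ratio turned to 1.15 when hits were pooled, a ratio that includes the hot gaps. The mean stop codon ratio turned to 1.01 without hotspots, with replicates on both sides of 1, and the cause was not tested. The strand correlation was 0.737 in hot gaps on the log2(HpM + 1) scale and 0.176 in cold gaps over all positions. Convergent gaps called higher or lower in SPO11+ numbered 18 and 1320 with total hits and 75 and 662 with TMM. With intragenic hits as library size they numbered 103 and 140, a larger move than that of any ratio. These library sizes set the scale.

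When each SPO11+ replicate was left out in turn, all 70 values kept their direction and stayed within these limits. Most of them are means that share most replicates with the main value, so they could hardly leave these limits. A ratio on the same side of 1 in every replicate could not change direction. The ranges were 30 to 33 hot gaps, 35.2% to 39.8% of convergent hits in hot gaps, 0.876 to 0.893 for the convergent over intragenic median, 2.34 to 2.60 for the widest over the narrowest class and 0.958 to 0.969 for the stop codon ratio. The convergent over tandem ratio was 0.156 to 0.180 under 100 bp, 0.108 to 0.118 at 100 to under 200 bp, 0.106 to 0.118 at 200 to under 400 bp, 0.119 to 0.130 at 400 to under 800 bp and 0.311 to 0.322 at 800 bp or more. The strand correlation was 0.794 to 0.812 in hot and 0.431 to 0.461 in cold gaps, and 16 to 20 gaps were called higher and 1284 to 1316 lower. No paired analysis was possible because the spo11-Y135F group has 1 library and shares fewer than 2 replicate numbers with SPO11+.

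Depth limits single cold gaps: their median was 14 to 22 hits in a SPO11+ replicate and 47 in spo11-Y135F. The single control library gives no replicate check, and the sign-flip test over 5 replicates cannot pass 0.05.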
